A study of Rattus norvegicus with 16 samples.

Results

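The 31 genes described here carry the synthesis of cholesterol, its control by the transcription factor SREBP2, and the handling of free and stored sterol in rat liver. They were chosen by gene symbol and make up 31 of the 17168 genes in the deposited tables: 19 enzymes of the synthesis pathway, 6 control genes and 6 handling genes. Liver RNA came from Sprague Dawley rats of 20 weeks of age that were either wild type or knockout for Tspo (tspo -/-), whose protein sits in the outer mitochondrial membrane and binds cholesterol. The rats had eaten ordinary food up to week 12 and then either chow or an MCD diet for 8 weeks. The MCD diet lacks methionine and choline and is used to induce a fatty, inflamed liver (steatohepatitis). The 4 groups were the wild type on chow, the wild type on MCD, the Tspo knockout on chow and the Tspo knockout on MCD, with 4 libraries each, named below as WT or KO with the diet and the number in the label. The labels do not give the deleted stretch of Tspo or the sex of the rats. They also do not say whether each library is a separate rat, so p-values measure the spread between libraries, which may in part be technical. The title of the series speaks of mice, whereas the organism label of all 16 samples is rat.

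Cholesterol is built from acetyl-CoA through mevalonate, isoprenoid diphosphates and squalene to lanosterol, which a series of endoplasmic reticulum enzymes trims and rearranges into cholesterol. SREBP2, the product of Srebf2, is held in the endoplasmic reticulum with its escort SCAP by the INSIG proteins while sterols are plentiful. When sterols fall, the complex moves to the Golgi, where the proteases encoded by Mbtps1 and Mbtps2 cut SREBP2 free to enter the nucleus and switch on the pathway's genes. The liver is the main site where this loop sets the supply of cholesterol for bile acids and lipoproteins, and surplus sterol is esterified for storage, moved between membranes, or sensed by liver X receptors.

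Library totals ran from 8745756 to 15762650 counts. Levels are CPM as the authors deposited them, that is, counts divided by library sizes that TMM had adjusted. They are not per length and cannot be compared between genes. All 7 hepatocyte markers were detected. Their summed level was 170900 to 213300 CPM in WT chow, 98520 to 139200 in WT MCD, 180400 to 240300 in KO chow and 105200 to 126100 in KO MCD. Tspo stood at 3.56 to 5.24 CPM in WT chow, 7.73 to 9.33 in WT MCD, 0.654 to 1.29 in KO chow 1 to 3 and 1.02 to 1.67 in KO MCD 2 to 4. It was at 4.40 CPM in the library labelled KO chow 4 and at 4.17 CPM in the library labelled KO MCD 1, near the wild type on chow. Library names below always give the label, also for these 2. Which part of the message those reads cover was not tested. An index of long against short messages was used as a stand-in for RNA quality, which was not measured here. This RNA quality index was the mean log2 CPM of 12 long messages minus that of 19 short ones, relative to WT chow. Most of the short messages encode respiratory chain subunits or ribosomal proteins. The index was -1.92 in KO chow 4, -0.92 in KO MCD 1 and -0.78 in WT chow 4. It lay between -0.18 and 0.37 in the other chow libraries and between 1.25 and 1.95 in the other MCD libraries. It therefore moved with the diet, so RNA quality and an effect of the diet on these messages cannot be told apart in it. The part of the index in the diet results was not tested beyond the values given with them.

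In the wild type, the MCD diet was accompanied by higher levels of 4 synthesis enzymes, of Srebf2 and of its protease gene Mbtps1, and by lower levels of the enzymes Tm7sf2 and Ebp. In the knockout 5 enzymes were lower and 1 was higher. Enzymes called in a single genotype pointed the same way in the other. The diet effect differed between the genotypes for 0 of the 31 genes by the interaction test described below. Of the 31 genes in the wild type 7 rose (Mvk, Fdft1, Sqle, Hsd17b7, Srebf2, Mbtps1 and Soat1), 4 fell (Tm7sf2, Ebp, Insig2 and Npc2) and 20 were not called. A call is a Benjamini-Hochberg adjusted p under 0.05 in edgeR's quasi-likelihood test over all 11162 genes tested; all 31 genes passed the filter on low counts. Among all genes tested 18.2% rose and 15.9% fell, 34.1% in either direction, so the 31 genes were called about as often as any gene. In the knockout 3 rose (Hsd17b7, Mbtps1 and Soat1), 7 fell (Pmvk, Ggps1, Tm7sf2, Ebp, Sc5d, Npc2 and Nr1h3) and 21 were not called, against 21.9% higher, 18.5% lower and 40.4% in either direction among all genes. The median log2 fold of the 31 genes was 0.40 in wild-type rats and 0.09 in the knockout, beside -0.0022 and 0.04 for all genes tested. An unadjusted p under 0.05 was reached by 12 higher and 6 lower genes in the wild type (45.3% of all genes in either direction) and by 4 higher and 7 lower in the knockout (49.7%).

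Directions are relative to the bulk of genes. With library totals alone the median gene moved up by 0.53 on the log2 scale in wild-type rats and 0.77 in the knockout, and the calls became 18 higher and 1 lower in the wild type and 16 higher and 2 lower in the knockout. The share of all genes called was taken only in the fit with TMM factors and all libraries. Calls under this and other settings therefore have no such share beside them. The 6 calls that follow were shared by both genotypes and all pointed the same way: Tm7sf2, Ebp and Npc2 lower and Hsd17b7, Mbtps1 and Soat1 higher, except that without scaling factors Npc2 turned to 0.11 in each genotype.

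**Figure D1:**
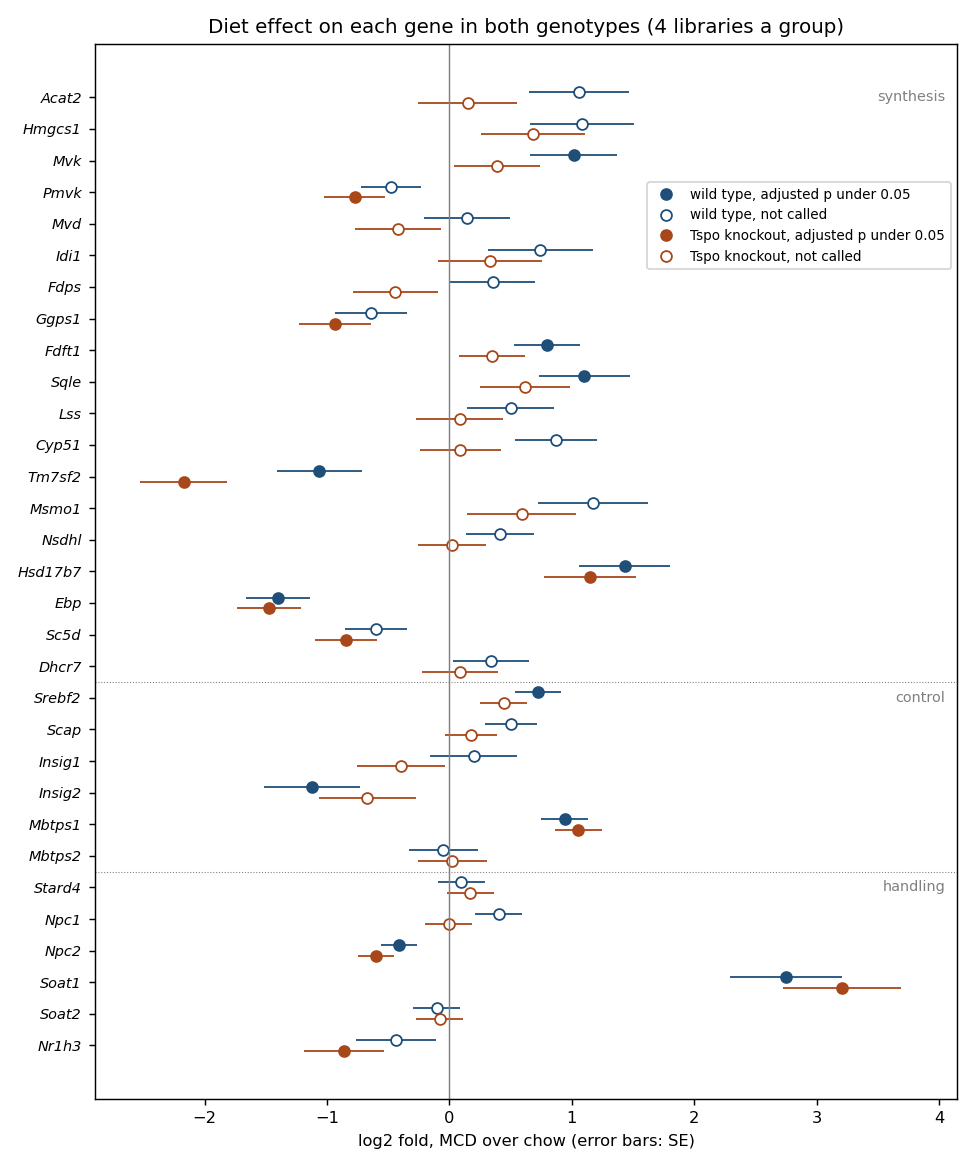
The log2 fold of MCD over chow (x axis, error bars SE) for each of the 31 genes in pathway order, in the wild type (blue) and the Tspo knockout (orange), with filled points for genes at an adjusted p under 0.05. Tm7sf2 and Ebp lie far to the left in both genotypes, Soat1 far to the right, and most of the other synthesis enzymes lie further right in the wild type than in the knockout.

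Acat2, the cytosolic thiolase that joins acetyl units at the entry of the pathway, stood at 20.6, 17.5, 20.5 and 18.6 CPM in WT chow 1 to 4 and at 64.2, 15.9, 34.5 and 47.3 CPM in WT MCD 1 to 4. In the knockout it stood at 21.7, 32.0, 25.9 and 21.2 CPM on chow and at 18.4, 12.4, 24.7 and 57.0 CPM on MCD. WT MCD 1, 3 and 4 lay above all chow libraries while WT MCD 2 lay below them, and in the knockout only KO MCD 4 lay above. Hmgcs1, which makes HMG-CoA from that product, also had WT MCD 2 alone among the chow values: 450.2, 579.8, 541 and 309 CPM in WT chow, and 1319, 338, 841 and 1511 CPM in WT MCD. In the knockout on MCD, Hmgcs1 was at 434, 476 and 612 CPM in libraries 1 to 3 and at 1401 CPM in KO MCD 4. Neither enzyme passed the threshold in either genotype.

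Mevalonate kinase, Mvk, stood at 15.1, 15.7, 12.8 and 23.2 CPM in WT chow 1 to 4 and at 39.2, 22.3, 32.9 and 41.7 CPM in WT MCD 1 to 4, overlapping only between WT chow 4 and WT MCD 2. It rose by a log2 fold of 1.01 ± 0.36 (SE; edgeR adjusted p = 0.037), a 2.02-fold change. The call was lost without any single one of WT chow 1, 2 or 3 or WT MCD 1, 3 or 4 (log2 fold 0.91 to 1.03, adjusted p 0.0582 to 0.0977). In the knockout Mvk was at 15.6, 17.7, 16.3 and 52.3 CPM on chow and 42.6, 22.8, 30.1 and 38.2 CPM on MCD. KO chow 4 was the highest of the 8 libraries, and the log2 fold of 0.39 ± 0.35 was not called. Without KO chow 4 Mvk was called higher in the knockout too.

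The next kinase, Pmvk, went the other way: it stood at 59.8, 47.2, 57.5 and 50.7 CPM in KO chow 1 to 4 and at 35.2, 23.5, 26.3 and 41.9 CPM in KO MCD 1 to 4, with no overlap. It fell by 0.77 ± 0.25 on the log2 scale in the knockout (edgeR adjusted p = 0.0214), a call lost without KO chow 1, KO MCD 2 or KO MCD 3 (adjusted p 0.0506 to 0.0738). In the wild type, where chow libraries were at 35.6 to 66.6 CPM and MCD libraries at 23.1 to 49.0 CPM, the value was -0.48 ± 0.25 and was not called. Mvd, which makes isopentenyl diphosphate, Idi1, which isomerises it, and Fdps, which joins the units into farnesyl diphosphate, were not called in either genotype. Their MCD libraries spanned wide ranges: 9.99 to 32.0 CPM for Mvd, 46.3 to 195 for Idi1 and 180.5 to 542 for Fdps in the wild type, each with its lowest value in WT MCD 2. In the knockout on MCD, the highest values of Mvd (30.0 CPM), Idi1 (175 CPM) and Fdps (554 CPM) were all in KO MCD 4.

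Ggps1 leaves the main line, making geranylgeranyl diphosphate for the lipid anchors of proteins. It was at 15.6, 17.3, 17.1 and 39.0 CPM in KO chow and 14.9, 11.6, 13.3 and 7.01 CPM in KO MCD, with no overlap, and fell by 0.93 ± 0.29 on the log2 scale (edgeR adjusted p = 0.0187). Without KO chow 4 the log2 fold was -0.52 (adjusted p = 0.0926), and without KO MCD 4 it was -0.75 (adjusted p = 0.0633); neither was called. In the wild type, with 13.3 to 21.9 CPM on chow and 9.31 to 13.6 CPM on MCD, the value was -0.64 ± 0.29 and was not called. In KO MCD 4, the highest library of its group for most enzymes, Ggps1 lay at -0.68 on the log2 scale against its group mean.

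Squalene synthase, Fdft1, commits the pathway to sterols. It was at 117, 149.6, 136 and 139 CPM in WT chow and 270.5, 118, 244 and 315 CPM in WT MCD, so that WT MCD 1, 3 and 4 lay above every chow library and WT MCD 2 lay among them. Fdft1 rose by 0.80 ± 0.27 on the log2 scale (edgeR adjusted p = 0.0322), and lost the call without WT chow 1 or 3 or WT MCD 1, 3 or 4 (adjusted p 0.0602 to 0.108). Sqle, squalene epoxidase, was at 30.2, 42.0, 38.3 and 43.8 CPM in WT chow and 105, 30.4, 72.3 and 126 CPM in WT MCD, with the same library low. Its log2 fold was 1.10 ± 0.37 (edgeR adjusted p = 0.0311), and the call was lost without WT chow 1, 2 or 3 or WT MCD 1 or 4 (adjusted p 0.0534 to 0.113). In the knockout the log2 folds were 0.35 ± 0.27 for Fdft1 and 0.62 ± 0.37 for Sqle, and neither was called. KO MCD 4 was highest for both, at 311 and 123 CPM, against at most 171 and 65.2 CPM in KO MCD 1 to 3.

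Lss, which closes the ring to lanosterol, was at 26.9 to 48.7 CPM in WT chow, at 86.8, 23.2, 25.0 and 74.7 CPM in WT MCD 1 to 4, and between 19.3 and 35.4 CPM in all 8 knockout libraries. Cyp51, the demethylase acting next, was at 254, 318, 231 and 311 CPM in WT chow and 661, 243, 519 and 635 CPM in WT MCD, again with only WT MCD 2 among the chow values. Msmo1, the methylsterol oxidase, was at 70.2 to 132 CPM in WT chow and at 314, 82.4, 188 and 373 CPM in WT MCD. None of these was called with all libraries in the fit. Leaving out WT MCD 2 raised the enzymes called higher in the wild type from 4 to 8, adding Acat2, Hmgcs1, Cyp51 and Msmo1, and lowered those called lower from 2 to 1. Leaving out WT chow 4 left 4 higher, and leaving out any other library of the 2 groups left 1 or 2. DESeq2 on all libraries called the same 8 enzymes higher. The share of all genes called was not taken for these settings. Leaving out KO MCD 4 turned the median log2 fold of the 19 enzymes in the knockout from 0.09 to -0.31, with 0 called higher and 4 lower.

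Tm7sf2, the sterol reductase that follows Cyp51, fell in both genotypes. It was at 62.2, 116, 79.1 and 74.5 CPM in WT chow and 61.0, 17.9, 38.3 and 42.8 CPM in WT MCD, and at 126, 139, 99.0 and 165 CPM in KO chow and 31.8, 15.9, 23.8 and 46.8 CPM in KO MCD. Libraries of the diets did not overlap in either genotype, although WT MCD 1 lay just below WT chow 1. The fall was 1.06 ± 0.34 on the log2 scale in the wild type (edgeR adjusted p = 0.0258) and 2.17 ± 0.36 in the knockout (edgeR adjusted p = 0.000282), a 4.51-fold drop. The knockout call held without each of the 8 libraries in turn, whereas the wild-type call was lost without WT chow 2 or WT MCD 2, 3 or 4 (adjusted p 0.0523 to 0.0848). Lbr, a nuclear envelope protein that catalyses the same reduction and is not among the 31, rose in both genotypes and was singled out after its values were seen (log2 fold 0.94 ± 0.22, edgeR adjusted p = 0.00415, and 1.07 ± 0.22, adjusted p = 0.00168).

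Nsdhl, the sterol dehydrogenase that removes the methyl carbon, was not called: 169 to 256 CPM in WT chow, 199.8 to 329 in WT MCD, 131 to 288 in KO chow and 154 to 363 in KO MCD. Its partner Hsd17b7, the keto-sterol reductase that finishes the step, rose in both genotypes. Hsd17b7 was at 4.89, 5.66, 4.85 and 9.06 CPM in WT chow and 23.8, 7.25, 15.4 and 20.2 CPM in WT MCD, and at 6.07, 7.75, 6.34 and 4.54 CPM in KO chow and 10.4, 9.08, 10.6 and 25.1 CPM in KO MCD. Libraries overlapped in the wild type, through WT chow 4 and WT MCD 2, and did not overlap in the knockout. The log2 fold was 1.43 ± 0.37 in the wild type (edgeR adjusted p = 0.00829; called without each library in turn) and 1.15 ± 0.37 in the knockout (edgeR adjusted p = 0.0229). The knockout call was lost without KO chow 4 (1.03, adjusted p = 0.0616) or KO MCD 4 (0.69, adjusted p = 0.124). With the RNA quality index in the model the Hsd17b7 call was lost in both genotypes.

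Ebp, the isomerase that shifts the ring double bond, fell in both genotypes under every setting tried. It was at 204, 182, 256 and 152 CPM in WT chow against 102, 38.6, 75.0 and 88.1 CPM in WT MCD, and at 194, 194, 173 and 163 CPM in KO chow against 56.0, 49.8, 67.0 and 89.5 CPM in KO MCD. All 4 MCD libraries lay below all 4 chow libraries in each genotype. Ebp fell by 1.40 ± 0.26 on the log2 scale in the wild type (edgeR adjusted p = 0.000912) and by 1.48 ± 0.26 in the knockout (edgeR adjusted p = 0.00052). Sc5d, the desaturase that acts on the product of Ebp, was at 292, 387, 309.7 and 320.4 CPM in KO chow and 159, 149, 141 and 287 CPM in KO MCD, with KO MCD 4 just below the lowest chow library. It fell by 0.84 ± 0.25 on the log2 scale in the knockout (edgeR adjusted p = 0.0153), a call lost without KO MCD 2 or 3 (adjusted p 0.0534 and 0.0512). Its value of -0.60 ± 0.25 in the wild type was not called although the libraries did not overlap (262 to 337 against 111 to 258 CPM). Dhcr7, the reductase of the last step, was not called and ranged from 93.6 to 229 CPM in WT MCD and from 93.6 to 216 CPM in KO MCD, its highest knockout value again in KO MCD 4.

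**Figure D2:**
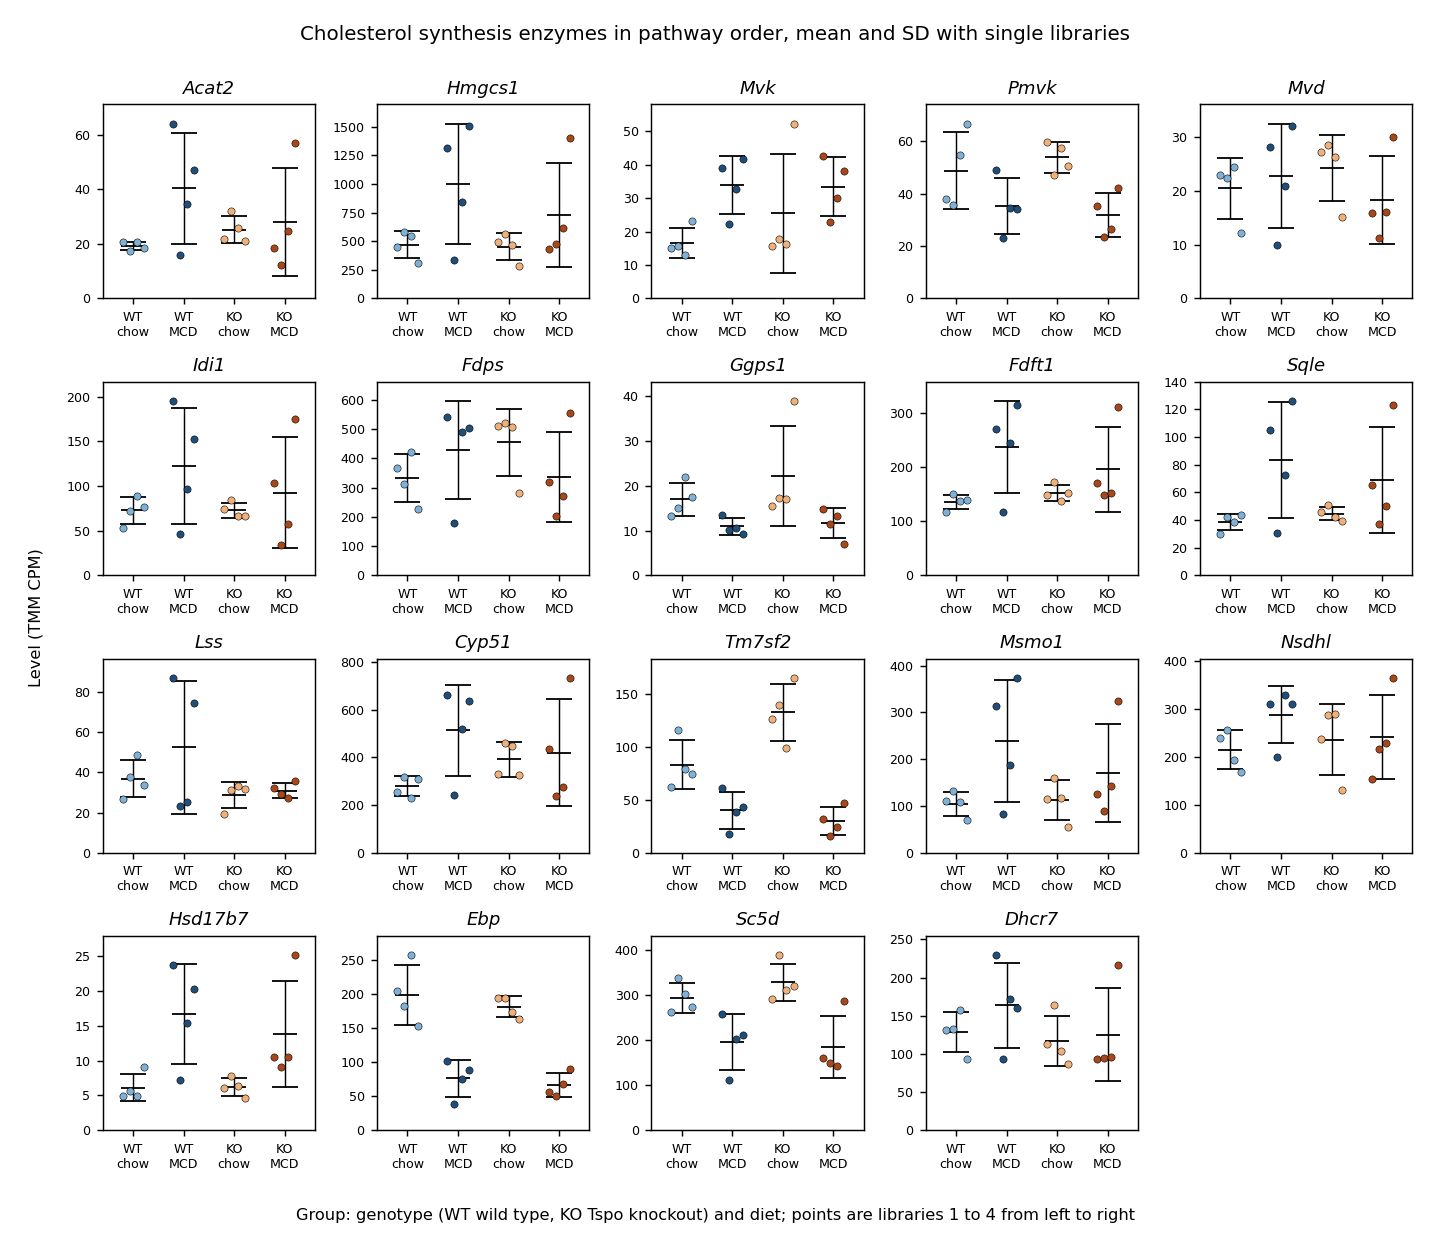
Deposited TMM CPM (y axis, from 0) of the synthesis enzymes in each library, by group (x axis), with points for libraries 1 to 4 from left to right and the mean ± SD of 4 libraries. For most enzymes the point for WT MCD 2 is the lowest of its group and the point for KO MCD 4 the highest of its own; Ebp and Tm7sf2 are lower in all MCD libraries.

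Counted over the pathway, 4 of the 19 enzymes rose and 2 fell in the wild type, and 1 rose and 5 fell in the knockout. Over all genes 18.2% rose and 15.9% fell in the wild type, and 21.9% and 18.5% in the knockout, so these counts are read as no more than a description. Without all libraries numbered 4 the balance in the wild type turned, with 2 higher and 4 lower (median log2 fold 0.28), and the knockout had 1 higher and 6 lower (median -0.39). With 1 library left out the knockout median ran from -0.31 (KO MCD 4) to 0.20 (KO MCD 2), and 3 enzymes were lower without KO MCD 2 or 3. The log2 fold was above 0 for 14 of 19 in the wild type (median 0.50) and for 12 of 19 in the knockout (median 0.09). With library totals alone 12 were called higher and 1 lower in the wild type, and 8 higher and 2 lower in the knockout. No enzyme that rose in the wild type had all its MCD libraries above all its chow libraries (0 of 19 enzymes, against 20.4% of all genes), while 3 (Tm7sf2, Ebp and Sc5d) had them all below (17.7% of all genes). In the knockout 1 enzyme, Hsd17b7, had all MCD libraries higher (17.9% of all genes) and 5 (Pmvk, Ggps1, Tm7sf2, Ebp and Sc5d) had all lower (13.6% of all genes). With the RNA quality index in the model 1 enzyme, Mvk, was called higher in each genotype and 1 was lower in wild-type rats and 3 in the knockout. The calls of Fdft1, Sqle, Hsd17b7 and Tm7sf2 in the wild type and of Pmvk, Ggps1 and Hsd17b7 in the knockout were then lost. The hepatocyte sum given above was lower in every MCD library than in every chow library, and its part in the falls was not tested. Other marker sums also moved with the diet without overlap. Bile duct markers (4 of 6 in the table) were at 16.1 to 36.1 CPM on chow and 69.8 to 127.9 CPM on MCD, and the 5 red blood cell markers were at 560.3 to 4790 CPM on chow and 93.5 to 258.1 CPM on MCD. The 4 intestinal markers, led by Apoa4, which liver also makes, were at 532.5 to 1642 CPM on chow and 93.1 to 271.7 CPM on MCD. The 9 stellate cell markers did not overlap in the knockout (223.7 to 354.2 CPM on chow and 440.7 to 646 CPM on MCD). The part of these in the diet results was not tested either. In such bulk RNA fewer cells of a type and less RNA per cell cannot be told apart.

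The stretch upstream of the start is shown for Tm7sf2 and Ebp, which fell in both genotypes, for Hsd17b7, which rose in both, and for Srebf2, which rose in the wild type and is the pathway's own switch. These 4 were picked after their values were seen. Each sequence is the 250 bases before the RefSeq start in the rat assembly GRCr8, 5′ to 3′ on the gene's strand, with capitals on CCAAT (read as ATTGG on the other strand), the box bound by NF-Y, and on TCACNCCA, the core of a sterol regulatory element. Tm7sf2 lies at chr1:212789542-212789791 (minus strand), Hsd17b7 at chr13:84722755-84723004 (minus), Ebp at chrX:16971212-16971461 (plus) and Srebf2 at chr7:115543057-115543306 (plus).

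Tm7sf2: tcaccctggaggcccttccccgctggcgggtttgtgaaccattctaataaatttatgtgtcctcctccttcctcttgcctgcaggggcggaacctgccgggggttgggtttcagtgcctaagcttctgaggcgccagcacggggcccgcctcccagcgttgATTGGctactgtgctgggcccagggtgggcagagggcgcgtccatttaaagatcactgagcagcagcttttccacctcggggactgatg
Ebp: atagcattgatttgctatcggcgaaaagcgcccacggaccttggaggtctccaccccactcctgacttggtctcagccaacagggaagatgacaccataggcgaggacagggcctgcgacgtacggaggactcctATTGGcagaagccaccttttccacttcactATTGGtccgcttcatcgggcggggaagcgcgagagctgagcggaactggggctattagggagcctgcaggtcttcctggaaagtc
Hsd17b7: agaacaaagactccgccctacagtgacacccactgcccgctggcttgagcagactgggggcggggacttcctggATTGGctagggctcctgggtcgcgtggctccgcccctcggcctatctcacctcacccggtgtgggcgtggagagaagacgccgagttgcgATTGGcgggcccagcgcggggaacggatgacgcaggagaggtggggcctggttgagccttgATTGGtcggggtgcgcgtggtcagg
Srebf2: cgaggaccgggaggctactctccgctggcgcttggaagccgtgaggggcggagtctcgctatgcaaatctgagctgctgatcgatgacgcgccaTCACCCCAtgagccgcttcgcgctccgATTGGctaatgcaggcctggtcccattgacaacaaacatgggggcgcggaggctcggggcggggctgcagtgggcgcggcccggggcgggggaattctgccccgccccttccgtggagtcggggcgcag

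All 4 hold a CCAAT box in these letters: Hsd17b7 has 3, Ebp has 2, and Tm7sf2 and Srebf2 have 1 each in the stretch shown. Srebf2 alone of the 4 also holds TCACNCCA, starting 156 bases before the start. RefSeq windows from 250 bases before to 50 bases after the start, 300 bases in all, matched 26 of the 31 symbols and not Pmvk, Fdft1, Sqle, Stard4 and Soat2. CCAAT on either strand was present in 18 of the 26 windows (69.2%) and in 13 of the 16 of synthesis enzymes, against 37.5% of all 33469 rat windows and 37.8% of the 8803 windows of genes tested here. GGGCGG, the box bound by Sp1, was in 20 of 26 (76.9%), against 33.1% of all windows and 61.2% of those of tested genes. CACGTG, an E-box, was in 3 of 26 (11.5%), against 6.42% and 9.09%. The sterol regulatory element searched as TCACNCCAC was in 0 of 26, against 1.12% of all windows and 1.1% of those of tested genes. The shorter TCACNCCA, added after that search gave none, was in 2, Msmo1 and Srebf2 (7.69%, against 3.89% and 3.44%). The short TCACNCCA lies within TCACNCCAC; a match in these letters is a description of the window, not a bound site. The 4 genes were picked by the direction of their calls, so the CCAAT box they share is not read against that direction.

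Among the 6 control genes 2 rose and 1 fell in the wild type, against 18.2% and 15.9% of all genes. In the knockout 1 rose and 0 fell, against 21.9% and 18.5%. These counts are read as no more than a description. Srebf2, which encodes SREBP2, was at 67.4, 68.0, 50.6 and 61.3 CPM in WT chow and at 103, 78.3, 96.8 and 133 CPM in WT MCD. Every MCD library lay above every chow library, including WT MCD 2, the lowest of the 4. Srebf2 rose by 0.72 ± 0.19 on the log2 scale (edgeR adjusted p = 0.00847), a call that held without each library in turn (adjusted p at most 0.0361) and was lost with the RNA quality index in the model (0.57, adjusted p = 0.0586). In the knockout it was at 58.4, 71.2, 59.7 and 71.1 CPM on chow and 65.6, 82.0, 91.9 and 117 CPM on MCD, overlapping through KO MCD 1, and the value of 0.44 ± 0.19 was not called (edgeR adjusted p = 0.0711).

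Mbtps1, which encodes the Golgi protease that makes the opening cut in SREBP2, rose in both genotypes. It was at 37.9, 44.6, 25.2 and 42.0 CPM in WT chow against 69.8, 76.4, 75.4 and 67.7 CPM in WT MCD, and at 31.7, 38.6, 39.7 and 24.9 CPM in KO chow against 56.3, 81.3, 66.0 and 78.8 CPM in KO MCD. The diets did not overlap in either genotype, and WT MCD 2 was not low for this gene. The log2 fold was 0.94 ± 0.19 in the wild type (edgeR adjusted p = 0.00155) and 1.05 ± 0.19 in the knockout (edgeR adjusted p = 0.000577), and both calls held under every setting tried. Mbtps2, which makes the following cut, was at 4.21 to 6.58 CPM in the 8 wild-type libraries and was not called. In the knockout it was at 3.60 to 5.13 CPM in KO chow 1 to 3, at 10.7 CPM in KO chow 4 and at 5.18 to 6.26 CPM on MCD. Scap, the escort, was not called, although its wild-type libraries did not overlap (48.5 to 69.6 CPM on chow and 72.7 to 107 CPM on MCD). In KO MCD it was at 65.4 to 74.1 CPM in libraries 1 to 3 and at 130.1 CPM in KO MCD 4.

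The INSIG genes encode the proteins that hold SCAP back. Insig2 was at 56.3, 80.4, 43.3 and 232 CPM in WT chow and 38.7, 48.9, 62.8 and 39.8 CPM in WT MCD, so the groups overlapped and WT chow 4 stood far above the others. It fell by 1.12 ± 0.40 on the log2 scale in the wild type (edgeR adjusted p = 0.0377), but without WT chow 4 the log2 fold was -0.35 (adjusted p = 0.287). The call was also lost without WT MCD 1, 2 or 4 (-1.14 to -1.04, adjusted p 0.0753 to 0.0949). In the knockout it was at 61.4, 61.6, 69.7 and 114 CPM on chow, highest in KO chow 4, and at 43.6 to 52.7 CPM on MCD, with no overlap, and the value of -0.67 ± 0.39 was not called. Insig1, itself a target of SREBP2, was at 363, 455, 294 and 631 CPM in WT chow and 569, 274, 579.5 and 589.6 CPM in WT MCD, and at 528, 555, 558 and 1283 CPM in KO chow and 582, 398, 377 and 880.3 CPM in KO MCD. WT MCD 2 was the lowest wild-type library and KO chow 4 the highest of all 16, and Insig1 was not called in either genotype. WT chow 4 and KO chow 4, the libraries with the high INSIG values, are also those with the lowest RNA quality index on chow, and its part in these values was not tested.

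**Figure D3:**
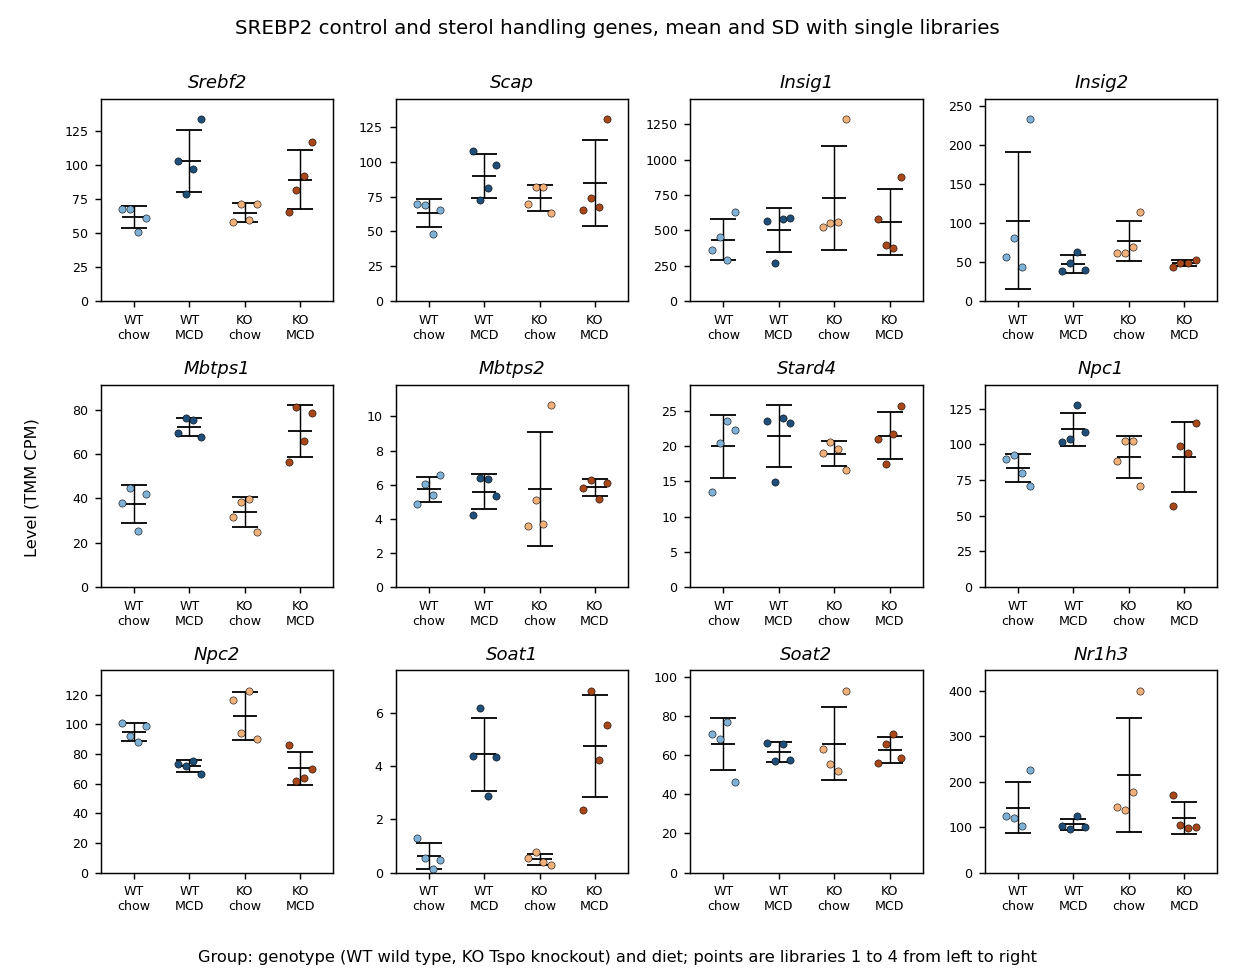
Deposited TMM CPM (y axis, from 0) of the 6 control and 6 handling genes in each library, by group (x axis), with points for libraries 1 to 4 from left to right and the mean ± SD of 4 libraries. Mbtps1 and Soat1 are higher in all MCD libraries, Npc2 is lower in all of them within each genotype, and the high points of Insig2, Insig1 and Nr1h3 on chow are libraries 4.

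Soat1 had the largest log2 fold of the 31 genes in both genotypes. It encodes an enzyme that esterifies cholesterol for storage and is known for its activity in macrophages, while Soat2 is known as the form of hepatocytes. Soat1 was at 1.29, 0.557, 0.142 and 0.477 CPM in WT chow and 4.36, 6.20, 2.86 and 4.34 CPM in WT MCD, and at 0.562, 0.764, 0.397 and 0.267 CPM in KO chow and 2.37, 6.84, 4.23 and 5.56 CPM in KO MCD. Every MCD library lay above every chow library, but the chow values rest on 1 to 14 counts a library in the wild type and 2 to 7 in the knockout, so the size of the fold is loosely set. The log2 fold was 2.75 ± 0.46 in the wild type (edgeR adjusted p = 0.000366) and 3.21 ± 0.48 in the knockout (edgeR adjusted p = 0.000136), and both calls held under every setting tried. The summed level of 9 macrophage markers, all detected, was 336.5 to 535 CPM in WT chow, 442.4 to 612.7 in WT MCD, 413.8 to 654.3 in KO chow and 415.5 to 645.3 in KO MCD, overlapping between diets. The list's most abundant gene was Clec4f on chow and Gpnmb on MCD, so the sum can hide changes of single markers. The part of macrophages in the Soat1 result was not tested. Soat2 lay between 46.4 and 93.0 CPM in all 16 libraries and was not called.

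Npc1 and Npc2 encode the membrane and soluble proteins that pass cholesterol out of lysosomes. Npc2 was at 101, 91.9, 88.2 and 98.9 CPM in WT chow and 73.5, 71.7, 75.6 and 66.3 CPM in WT MCD, and at 117, 93.9, 123 and 90.2 CPM in KO chow and 86.1, 62.0, 63.5 and 69.6 CPM in KO MCD. All MCD libraries were lower than all chow libraries in each genotype. Npc2 fell by 0.41 ± 0.14 on the log2 scale in the wild type (edgeR adjusted p = 0.0364) and by 0.60 ± 0.14 in the knockout (edgeR adjusted p = 0.00418). The wild-type call was lost without any 1 of 7 of the 8 libraries, all but WT chow 3 (-0.44 to -0.37, adjusted p 0.0553 to 0.101), and without scaling factors the value was 0.11 in each genotype. Npc1 was not called; its wild-type libraries did not overlap (70.8 to 92.3 CPM on chow, 102 to 128 CPM on MCD), while KO MCD spanned 56.9 to 115 CPM and KO chow 71.1 to 102 CPM.

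Nr1h3 encodes liver X receptor alpha, a nuclear receptor for oxidised sterols. It was at 144, 137, 177 and 401 CPM in KO chow and 172, 105, 98.2 and 101 CPM in KO MCD. KO chow 4 and KO MCD 1, the libraries with high Tspo, stood above the other 3 of their groups, and the groups overlapped through KO MCD 1. Nr1h3 fell by 0.86 ± 0.33 on the log2 scale in the knockout (edgeR adjusted p = 0.0457), but without KO chow 4 the log2 fold was -0.37 (adjusted p = 0.274). The call was also lost without KO MCD 2, 3 or 4 (-0.80 to -0.78, adjusted p 0.109 to 0.111). With the RNA quality index in the model the value was 0.03 (adjusted p = 0.946). In the wild type, with 102 to 226 CPM on chow and 96.6 to 124 CPM on MCD, the value was -0.44 ± 0.33 and was not called. Stard4, a carrier of free cholesterol in the cytosol, lay between 13.5 and 25.8 CPM in all 16 libraries and was not called.

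Over all 31 genes the MCD libraries lay above the chow libraries without overlap for 5 genes in the wild type (Srebf2, Scap, Mbtps1, Npc1 and Soat1) and 3 in the knockout (Hsd17b7, Mbtps1 and Soat1), against 20.4% and 17.9% of all genes. They lay below without overlap for 4 and 7, against 17.7% and 13.6%. Without WT MCD 2 the wild type had 11 genes called higher and 1 lower, and without any 1 of WT chow 1, 2 or 3 or WT MCD 1, 3 or 4 it had 4 or 5 higher. The genes called lower there numbered 1 without WT MCD 4 and 2 without WT chow 2, WT chow 4 or WT MCD 3. In the knockout 4 were called lower without KO MCD 2 or KO MCD 3. Leaving out KO chow 4 and KO MCD 1, the libraries with high Tspo, gave 5 genes higher and 7 lower in the knockout, in place of 3 and 7, with Mvk and Hsd17b7 as the enzymes called higher. The 2 diet comparisons have no library in common.

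The knockout was then compared with the wild type on each diet. Tspo itself was not called on chow (log2 difference -1.23 ± 0.49, edgeR adjusted p = 0.46). It was not called on MCD either (-2.07 ± 0.45, edgeR unadjusted p = 0.00029). The libraries labelled KO chow 4 and KO MCD 1 are included in these values. A count of 0 calls between the genotypes therefore does not show that genes are unchanged. On chow 0 of the 31 genes were called, and among all genes 0% rose and 0.00896%, a single gene outside the 31, fell by edgeR's test. At an unadjusted p under 0.05, 0 of the 31 passed (10.3% of all genes); DESeq2 called 0 too. Acat2 and Cyp51 were higher in all 4 knockout libraries on chow than in all 4 wild-type ones, at 21.2 to 32.0 against 17.5 to 20.6 CPM and at 327 to 461 against 231 to 318 CPM. Such a lack of overlap was seen for 2 of 31 genes higher and 0 lower, against 1.66% and 2.63% of all genes, and the log2 differences of 0.38 ± 0.41 and 0.49 ± 0.33 were not called. The log2 difference was above 0 for 15 of the 19 enzymes, with a median of 0.16. Tm7sf2 had the largest value among them, 0.67 ± 0.34, with 99.0 to 165 CPM in the knockout and 62.2 to 116 CPM in the wild type.

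On MCD the knockout and the wild type had 0 of 31 genes called (0% of all genes higher and 0% lower), with edgeR and with DESeq2. An unadjusted p under 0.05 was reached by 1 of 31 (0.726% of all genes): Lss, at -0.76 ± 0.35 (edgeR unadjusted p = 0.0462, adjusted p = 1). Its wild-type libraries split, with WT MCD 1 and 4 at 86.8 and 74.7 CPM and WT MCD 2 and 3 at 23.2 and 25.0 CPM, around the 27.0 to 35.4 CPM of the knockout. The difference was below 0 for 18 of the 19 enzymes (median -0.29), the exception being Ggps1 at 0.09 ± 0.29. No gene of the 31 lacked overlap in either direction, against 0.475% and 0.34% of all genes.

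For the 19 enzymes the difference of the log2 folds, knockout minus wild type, was below 0 for all 19, from -1.11 to -0.08 with a median of -0.41 and SEs of 0.35 to 0.63. None of these differences was called by edgeR's interaction test or by DESeq2 (0% of all genes called), and 1 of the 31 genes had an unadjusted p under 0.05 (2.96% of all genes): Tm7sf2, at -1.11 ± 0.48 (edgeR unadjusted p = 0.0353, adjusted p = 1). The enzymes shift together between libraries, so 19 values of one sign are not 19 separate measurements. Lss and Tm7sf2 were singled out after their values were seen. The 6 control genes had differences from -0.59 to 0.45 (median -0.10) and the 6 handling genes from -0.42 to 0.46 (median -0.08), with 3 of 6 below 0 in each. Without KO chow 4 and KO MCD 1 the calls were also 0 on chow, on MCD and for the difference of the folds, with medians over the 19 enzymes of 0.17, -0.25 and -0.39. The medians depended more on other single libraries, with 0 calls each time. The median difference of the folds was -0.76 without KO MCD 4 and -0.68 without WT MCD 2. The median on MCD was -0.70 without KO MCD 4, -0.55 without WT MCD 2, -0.18 without WT MCD 4, -0.155 without WT MCD 1 and -0.14 without KO MCD 2. Without all libraries numbered 4 these medians were -0.69 and -0.59. These comparisons use the same libraries as the diet comparisons.

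The spread within the MCD groups was shared across the pathway. After the mean of each group was taken from log2 CPM, WT MCD 2 was the lowest of its 4 libraries for 18 of the 19 enzymes and lay on average at -0.92 on the log2 scale, while 26.7% of all genes tested had their lowest value there. WT MCD 1 was the highest for 12 enzymes and WT MCD 4 for 6. KO MCD 4 was the highest for 17 of the 19, at 0.71 on average (27.1% of all genes), and KO MCD 2 was the lowest for 13, at -0.50 (14.9% of all genes). On average over the enzymes the chow libraries differed less, from -0.15 in KO chow 4 to 0.20 in KO chow 2. Single enzymes in KO chow 4 ran from -0.92 to 1.24, and it was the lowest of its 4 libraries for 11 of the 19 (38.7% of all genes). KO chow 2 was the highest for 13 (20.8% of all genes). Leaving out WT MCD 2 moved the median log2 fold of the enzymes on MCD from 0.50 to 0.75 in the wild type, and leaving out KO MCD 4 moved it from 0.09 to -0.31 in the knockout.

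**Figure D4:**
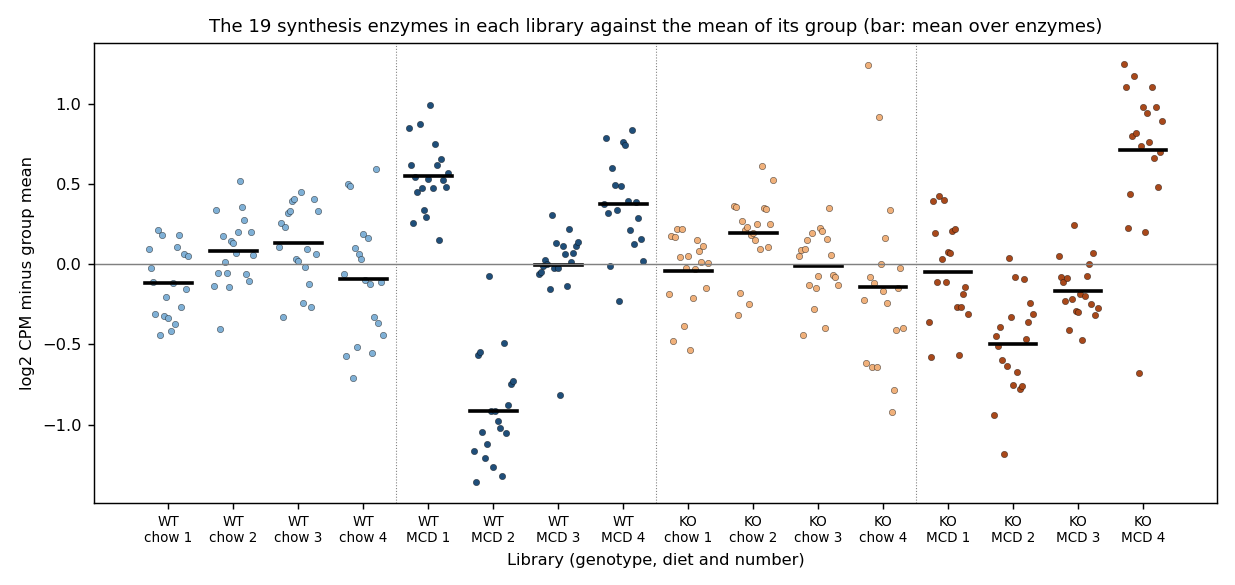
Log2 CPM of each of the 19 synthesis enzymes minus the mean of its group (y axis) in each of the 16 libraries (x axis), a point for each enzyme and a bar for the mean over enzymes. The points of WT MCD 2 lie below 0, and those of KO MCD 4 lie above 0 except Ggps1 at -0.68. The means of the chow libraries lie around 0, with single enzymes of KO chow 4 from -0.92 to 1.24.

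Across the 16 libraries, with group means removed, the 171 pairs of enzymes had a median correlation of 0.73, and 127 pairs had one over 0.5. All enzymes of a library share its depth and its RNA quality, which was not measured. Correlations were not computed for pairs drawn from all genes. These values are therefore not read as particular to the pathway. Acat2 had the highest median correlation with the other enzymes, 0.86, followed by Sc5d at 0.83 and Hmgcs1 at 0.82. Ebp and Tm7sf2, which fell on MCD, still moved between libraries with enzymes that did not, at 0.79 and 0.68. Mvk at 0.31 and Ggps1 at -0.26 stood lowest. Beside the low enzyme levels of WT MCD 2, the summed level of 9 stellate cell and myofibroblast markers, all detected, was 1228 CPM in that library and 433 to 482.8 CPM in the other 3 of its group, and its hepatocyte sum of 98520 CPM was the lowest of the 16. KO MCD 4 had the highest hepatocyte sum of the knockout libraries on MCD, 126100 CPM, and an endothelial sum of 240.8 CPM (5 of 6 markers in the table) against 118.4 to 182.5 in the other 3. Hepatocyte sums and enzyme levels did not keep the same order elsewhere. WT MCD 3 had the highest hepatocyte sum of its group, 139200 CPM, with an enzyme mean of -0.0045. KO MCD 2, the lowest for 13 enzymes, had 115300 CPM, above KO MCD 1 (105500 CPM) and KO MCD 3 (105200 CPM). The part of other cell types in these library differences was not tested.

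Of 30 further genes of sterol metabolism that are not among the 31, 28 were in the table. Of these 9 rose and 4 fell in the wild type and 7 rose and 7 fell in the knockout on MCD, against 18.2% higher and 15.9% lower of all genes in the wild type and 21.9% and 18.5% in the knockout, and 0 were called in the genotype comparisons. Those with the smallest p in the wild type were Dhdds, a subunit of the enzyme that makes dolichol, with log2 folds of 1.92 ± 0.20 in wild-type rats and 1.40 ± 0.19 in the knockout (edgeR adjusted p = 7.55e-06 and 6.85e-05), and Nceh1, a cholesteryl ester hydrolase, with 2.03 ± 0.23 and 2.31 ± 0.24 (adjusted p = 1.73e-05 and 6.5e-06). Lcat, the plasma enzyme that esterifies cholesterol on lipoproteins, fell by 1.50 ± 0.18 on the log2 scale in the wild type and by 1.40 ± 0.18 in the knockout (edgeR adjusted p = 2.5e-05 and 3.5e-05). Abca1, the transporter that exports cholesterol, rose by 1.30 ± 0.28 in the wild type (edgeR adjusted p = 0.00215) and by 1.15 ± 0.27 in the knockout (adjusted p = 0.00394). Acly, which supplies cytosolic acetyl-CoA, fell by 1.52 ± 0.31 in the knockout (edgeR adjusted p = 0.00135) and was not called in the wild type (0.12 ± 0.30, adjusted p = 0.786). Its difference of the folds, -1.63 ± 0.43, was not called (edgeR adjusted p = 1), and on chow it was at 524.1 to 1120 CPM in the knockout and 258.7 to 540.3 CPM in the wild type (1.25 ± 0.30, adjusted p = 0.395). Soat1, which stores cholesterol as ester, and Nceh1, which frees it, both rose in each genotype.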

How the data were processed

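The 16 rat liver libraries were made from poly(A) RNA with a kit that keeps strand (labels' protocols). The sources used here do not give read length, the strand setting of the counting or the annotation. The authors deposited expected counts per gene. Bowtie2 2.1.0, RSEM 1.2.15 and the genome build rn6 are named in the submitters' processing notes, with no roles given. Expected counts divide ambiguous reads between genes, so not all values are whole (88.9% were). The authors also deposited a normalised signal, CPM of the library total scaled by TMM factors; all 202017 values above 0 were a fixed multiple, per library, of the rounded count (relative tolerance 1e-06). Levels come from that table and tests from the counts, rounded to whole numbers. The chi-square per gene between libraries of a group was 15.3 to 384, so none repeats another. Counts were analysed in R 4.3.3 with edgeR 4.0.16 over all 4 groups in 1 fit (filterByExpr, TMM factors, robust quasi-likelihood test, 12 residual degrees of freedom, common biological coefficient of variation 28%), which left 11162 of 17168 genes, and p-values were adjusted over all of them by Benjamini-Hochberg in each of 5 contrasts. The SE of a log2 fold is the fold divided by the square root of its F value. Groups came from the titles and were checked against the genotype and diet labels. The scripts were tested on simulated counts with known changes. Alternatives were DESeq2 1.42.0, upper quartile factors, no scaling, no filter, a fit of 2 groups, a replicate block, the RNA quality index as covariate, a test against a log2 fold of 0.5, and left-out libraries; leaving out KO chow 4 and KO MCD 1 together was chosen after seeing the data. A fold is given for each of the 31 genes called in a contrast, and for at most 4 further genes per contrast with the smallest p; the genes, lists and rules were chosen with earlier results of these data known. Reads carry no molecular identifiers and are not independent molecules. Promoter windows came from RefSeq, assembly GRCr8, which differs from rn6.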

Additional observations from a re-analysis of the deposited data

Results flagged for a closer look

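In 124 gene and group combinations of 4 libraries, 19 had a highest or lowest library far from the other 3, by Dixon's criterion on the gap over the range. Chance flags about 1 in 20 groups, or 6.2 here, and genes that move together are not separate cases. Library KO chow 4 stood apart for 7 genes: high for Mvk at 52.3 CPM, Ggps1 at 39.0, Insig1 at 1283, Insig2 at 114.5 and Nr1h3 at 400.9, and low for Mvd at 15.1 and Fdps at 282.5. KO MCD 4 was high for 5 genes, Fdft1 at 311 CPM, Hsd17b7 at 25.1, Sc5d at 287, Dhcr7 at 216.5 and Scap at 130.1. WT MCD 2 was low for 4, Fdps at 180.5 CPM, Nsdhl at 199.8, Insig1 at 273.6 and Stard4 at 14.9. The other 3 were Mvd in WT chow 4, low at 12.1 CPM, Lss in KO chow 1, low at 19.3 CPM, and Nr1h3 in KO MCD 1, high at 171.8 CPM.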

How the results depend on the processing

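Calls for Ebp, Mbtps1 and Soat1 in both genotypes and Tm7sf2 in the knockout held under every setting tried. In the wild type the 7 genes higher became 11 with DESeq2, 18 without scaling factors, 12 in a fit of the 2 groups alone, 3 with the RNA quality index as covariate, 3 when tested against a log2 fold of 0.5, and 4 to 11 when 1 library was left out; the 4 lower became 1 without scaling, 1 with the index, 1 against 0.5 and 1 to 4 with a library left out. In the knockout the 3 higher became 16 without scaling, 5 without WT chow 4, KO chow 4 and KO MCD 1, 5 without KO chow 4 and KO MCD 1 alone, and 2 to 4 with 1 library left out; the 7 lower became 2 without scaling, 2 against 0.5 and 4 to 7 with a library left out. The cause of these shifts was not tested. The share of all genes called under each of these settings was not taken, so the counts cannot be set against it. Without scaling Npc2 reversed to 0.11 in each genotype, and with the index Nr1h3 in the knockout reversed to 0.026. The genotype and interaction counts stayed at 0 under every setting. With the replicate number as a block the calls were 7 higher and 3 lower in the wild type and 3 and 6 in the knockout; Insig2 (adjusted p = 0.0685) and Nr1h3 (adjusted p = 0.0646) were lost. Same-numbered libraries correlated from -0.32 to 0.51 after group means were removed. Between genotypes, wild-type number 4 correlated best with knockout number 4 on chow (0.51) and on MCD (0.19), and number 2 with number 2 on MCD (0.33). Every other best match, also between the diets, was with a different number. Whether the numbers pair samples or mark a batch was not tested, and the labels name neither. Non-overlap counts were equal when taken from counts with edgeR factors. Depth limits Soat1 most, at 1 to 14 counts a library on chow.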
